A study of Mus musculus with 12 samples.

Results

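The 9 Hedgehog pathway genes *Shh*, *Ihh*, *Ptch1*, *Smo*, *Gli1*, *Gli2*, *Gli3*, *Hhip* and *Sufu* were followed in RNAseq of whole mouse lungs from before to after birth. They were chosen by symbol, and all 9 were among the 51825 genes of the deposited CPM table, where CPM is the count of a gene scaled to the mapped reads of its library. Of these, 8 were also among the 16152 genes of the raw count table, and *Ihh* was listed in the CPM table alone. Lungs of wild-type C57BL/6 mice were collected at the embryonic days E15.5 and E18.5 and the postnatal days P5 and P8, with 3 libraries at each of the 4 time-points and 12 in all. No allele was engineered and no treatment is named for any group. Females and males were used, and the sex behind each library is not given in the sources used here. Replicates of a time-point were littermates, so litter and time-point cannot be told apart.

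Hedgehog ligands are secreted proteins that bind the receptor PTCH1. Without ligand, PTCH1 keeps the membrane protein SMO inactive, SUFU holds the GLI transcription factors back, and GLI3 is processed to a repressor. With ligand, SMO accumulates in the primary cilium and the GLI factors switch on targets, among which are *Gli1*, *Ptch1* and *Hhip*. In the developing lung, the airway epithelium makes *Shh* and the surrounding mesenchyme carries the receptor and the GLI factors, an exchange known for its part in branching and in smooth muscle formation.

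Between E18.5 and P5, *Shh*, the receptor *Ptch1*, the transducer *Smo*, all 3 *Gli* genes and *Sufu* fell, while the ligand-binding inhibitor *Hhip* rose. The falls ranged from -0.37 for *Shh* to -1.35 for *Gli3* on the log2 scale. *Gli1* already fell before birth, between E15.5 and E18.5, as did *Smo* by less. *Hhip* rose in both of these intervals and fell again between P5 and P8. The prenatal changes of *Smo* and *Hhip* and the fall of *Hhip* after P5 were not past the threshold without certain single libraries. *Ptch1* and *Gli2* followed each other most closely across the libraries, with a Pearson's r of 0.99.

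The counted reads ranged from 41337443 to 53901957 per library, and the 8, 12 and 7 marker genes listed for epithelium, mesenchyme and endothelium all had reads at every time-point. Some libraries stood apart by genes of neighbouring tissues. The summed CPM of 10 thymus genes was 330 and 588 in P8 replicates 1 and 2, against 86.6 to 136 in the other 10 libraries, and that of 8 oesophagus and stomach genes was 735 and 558 in the same 2 libraries, against 4.86 in P8 replicate 3. The summed CPM of 8 heart muscle genes was 1200.2 and 1495 in E15.5 replicates 1 and 2, against 65.7 in E15.5 replicate 3. E15.5 replicate 3 was also the highest E15.5 library for all 8 counted Hedgehog genes, and P8 replicate 3 the highest P8 library for 6 of the 8. The part of the neighbouring tissues in these values was not tested. Calls that were lost without these libraries are said to be so beside them. A fit with fewer libraries can also call fewer genes of any kind. From P5 to P8, 2872 of 15994 genes were past the FDR threshold of 0.05 with all libraries, and 1401 of 15874 without P8 replicate 1. Where 1 library is left in a group, a call lost with the tissues cannot be told apart from one lost for want of libraries.

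**Figure D1:**
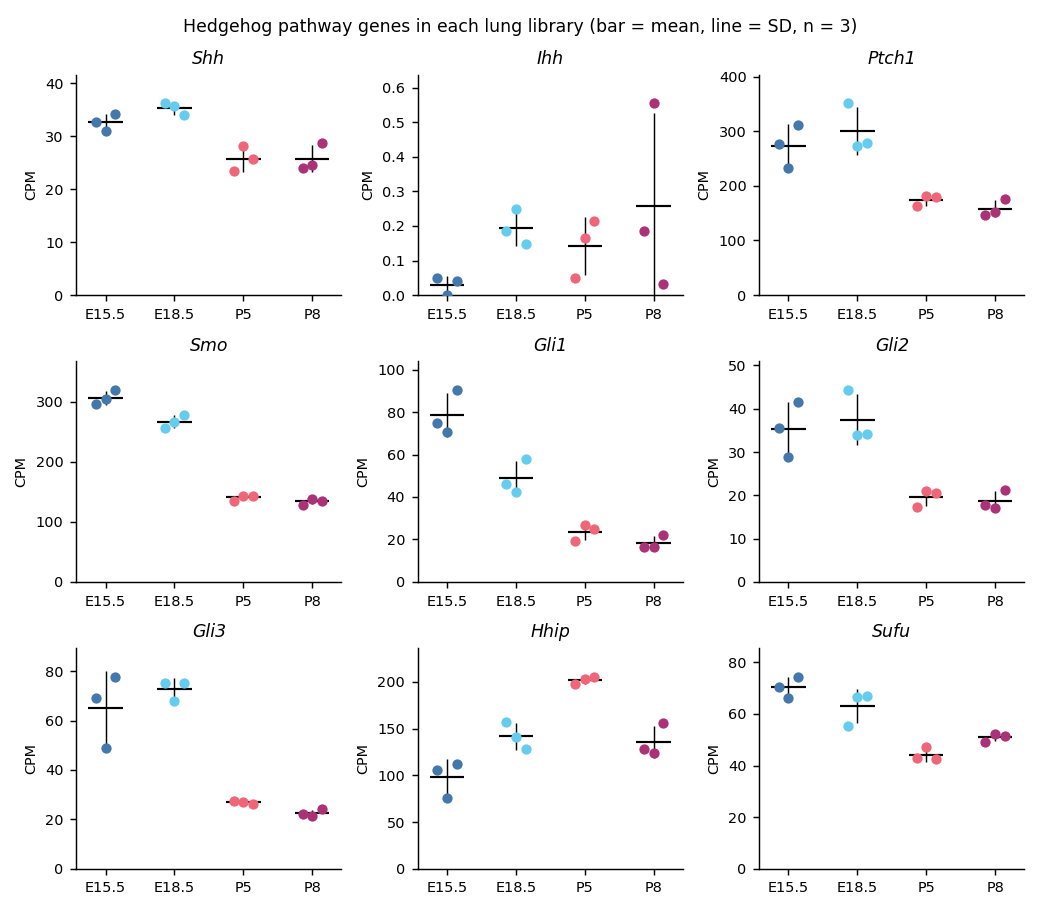
CPM (vertical axis, starting at 0) of each of the 9 genes in each library (points), by time-point (horizontal axis), with the mean as a bar and the SD as a line (n = 3). The P5 and P8 points lie below the E15.5 and E18.5 points for *Shh*, *Ptch1*, *Smo*, the 3 *Gli* genes and *Sufu*, the *Hhip* points are highest at P5, and *Ihh* reaches at most 0.556 CPM.

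The promoters of *Ptch1*, *Gli2* and *Hhip* are shown because the first 2 genes moved together and the last moved against them. Of the 9 genes, 7 matched an entry in the RefSeq promoter table (GRCm38.p6, the assembly also called mm10), and each window holds the 250 bases directly upstream of the RefSeq start, 5′ to 3′ on the strand of the gene. They lie at chr13:63565736-63565985 for *Ptch1*, chr1:119053620-119053869 for *Gli2* and chr8:80058009-80058258 for *Hhip*, all on the minus strand. Capitals mark the letters ACCACCC, the inner part of the GLI binding consensus GACCACCCA, as read on either strand.
*Ptch1* promoter: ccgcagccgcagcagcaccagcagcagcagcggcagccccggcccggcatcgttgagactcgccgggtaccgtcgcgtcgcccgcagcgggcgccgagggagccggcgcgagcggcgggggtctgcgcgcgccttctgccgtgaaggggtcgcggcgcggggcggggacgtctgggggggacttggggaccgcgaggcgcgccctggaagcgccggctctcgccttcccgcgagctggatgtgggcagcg
*Gli2* promoter: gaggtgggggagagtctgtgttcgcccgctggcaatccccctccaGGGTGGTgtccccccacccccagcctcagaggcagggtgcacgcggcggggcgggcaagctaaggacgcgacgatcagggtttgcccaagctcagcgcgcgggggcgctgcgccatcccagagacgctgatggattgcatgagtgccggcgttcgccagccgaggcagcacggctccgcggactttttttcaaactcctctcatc
*Hhip* promoter: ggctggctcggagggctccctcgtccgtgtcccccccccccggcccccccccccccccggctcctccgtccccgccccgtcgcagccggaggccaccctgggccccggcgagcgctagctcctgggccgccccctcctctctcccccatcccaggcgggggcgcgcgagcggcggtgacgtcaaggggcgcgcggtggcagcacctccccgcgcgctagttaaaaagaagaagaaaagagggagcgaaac
All 3 windows were rich in G and C, at 78.4% for *Ptch1*, 67.2% for *Gli2* and 76% for *Hhip*. The whole consensus was in none of the 7 windows and in 74 of 32851 promoters of the same length (0.225%). Its inner letters, which the whole consensus contains, were in the *Gli2* window alone, from base 46 on the opposite strand, and in 1289 of the 32851 promoters (3.92%). The RefSeq start of *Ptch1* lies inside the span that Gencode gives for the gene, so this window lies within the gene as annotated there.

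Ligands came first in the pathway order. *Shh* (ENSMUSG00000002633.4, mm10 chr5:28456815-28467256), the main Hedgehog ligand of the lung epithelium, was at 32.6, 30.9 and 34.2 CPM in E15.5 replicates 1, 2 and 3, and by E18.5 at 36.2, 35.7 and 33.9 CPM. After birth it was at 23.3, 28.1 and 25.6 CPM at P5 and 23.9, 24.5 and 28.6 CPM at P8. Each of the 6 postnatal libraries lay below each of the 6 embryonic ones, while the pairs of time-points within each period overlapped. From E18.5 to P5, *Shh* fell to 0.772 of its level (-0.37 on the log2 scale, edgeR FDR = 0.00086, standard error 0.077). No change was detected before (log2 fold change 0.12, edgeR FDR = 0.28) or after this interval (log2 fold change -0.01, edgeR FDR = 0.92). Over the whole period from E15.5 to P8, the log2 fold change of *Shh* was -0.27 (edgeR FDR = 0.0072), and it was -0.22 (edgeR FDR = 0.051) without P8 replicate 2 and -0.11 (edgeR FDR = 0.35) with P8 replicates 1 and 2 left out.

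In bulk tissue, fewer cells of a type and less RNA per cell cannot be told apart. Markers of the epithelium moved in both directions across birth. The summed CPM of 8 general epithelial markers fell across birth, as *Shh* did, from 1015 to 1151 across the E18.5 libraries to 566 to 624 across the P5 libraries. Of these, 6 of the 8 were lower past the FDR threshold and none was at 0. Over all genes, 35.4% were higher and 35.7% lower past it across birth. At P8 the sum was 732 to 786, with 5 of the 8 higher past the threshold from P5 to P8, where no change of *Shh* was detected. The summed CPM of 4 markers of the distal tips also fell across birth, from 522 to 547 to 313 to 338, with 2 of the 4 lower past the threshold. The 9 markers of alveolar epithelium, among them the surfactant genes, moved the other way, with all 9 higher and a summed CPM that went from 1285 to 2216 across the E18.5 libraries to 16949 to 19694 across the P5 libraries. The part of these cells in the fall of *Shh* was not tested. The antisense gene *9530036O11Rik* shares 446 bases, or 15.7%, of the annotated *Shh* exons, and the strand setting of the counting is not given in the sources used here.

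*Ihh* (ENSMUSG00000006538.12, chr1:74945315-74951672), the Hedgehog ligand best known from growing cartilage, was close to the limit of detection. It had 3, 0 and 2 reads in the E15.5 libraries, 9, 13 and 8 at E18.5, 3, 8 and 13 at P5 and 9, 34 and 2 at P8. All E18.5 libraries were above all E15.5 libraries, and every other pair of time-points overlapped. The most reads were in P8 replicate 2, in which the summed CPM of 10 cartilage genes was 141, against 95.1 and 24.2 in P8 replicates 1 and 3. At E15.5 the same cartilage genes summed to 203 to 204 CPM with at most 3 reads of *Ihh*. These genes did not move together, with 2 of the 9 tested higher and 3 lower past the FDR threshold from E15.5 to P8, where 76.3% of all genes were past it. The part of cartilage in the reads of *Ihh* was not tested. The reads behind the CPM values were also fitted without a filter, an alternative chosen after seeing the data. In this fit *Ihh* differed between E15.5 and P8 (log2 fold change 3.08, edgeR FDR = 0.020, standard error 1.07). It did so in no other pair of time-points (lowest edgeR FDR 0.10). Of the P8 reads 34 were in P8 replicate 2, while the 2 reads of P8 replicate 3 lay within the 0 to 3 of E15.5. A fit of these reads without P8 replicate 2 is not given here.

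*Dhh*, the ligand best known from testis and peripheral nerve sheath, was no member by the rule but completes the ligands. It was at 1.19, 2.24 and 0.688 CPM in the E15.5 libraries, 1.46, 2.01 and 1.61 at E18.5, 6.89, 7.35 and 6.44 at P5 and 7.98, 9.48 and 8.56 at P8. No embryonic library reached the lowest postnatal one. From E18.5 to P5 *Dhh* rose by 2.11 on the log2 scale (standard error 0.31, edgeR FDR = 5.3e-05), the opposite direction to *Shh*. On the scale of CPM per kb of exon, the mean level of *Dhh* went from 0.385 at E18.5 to 1.57 at P5, still below the 9.02 of *Shh* at P5.

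The receptor gene *Ptch1* (ENSMUSG00000021466.12, chr13:63508328-63573598), whose product binds the ligands and which is itself a target of the pathway, was at 277, 232 and 311 CPM at E15.5, then at 351, 272 and 279 CPM by E18.5. It was at 162, 181 and 180.1 CPM at P5 and 147, 151 and 176 CPM at P8. All postnatal libraries lay below all embryonic ones, with overlap within each period. The fall from E18.5 to P5 was -0.70 on the log2 scale (standard error 0.12, edgeR FDR = 0.00019), and the log2 fold changes from E15.5 to E18.5 (0.14, edgeR FDR = 0.41) and from P5 to P8 (-0.16, edgeR FDR = 0.38) were not past the threshold.

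*Smo* (ENSMUSG00000001761.7, chr6:29735503-29761365), the membrane protein that passes the signal on when PTCH1 is bound, was at 296, 304 and 319 CPM in the E15.5 libraries, 256, 266 and 277 at E18.5, 135, 143 and 143 at P5 and 129, 138 and 135 at P8. The E18.5 libraries lay below the E15.5 libraries and the postnatal libraries below both, while P5 and P8 overlapped. From E18.5 to P5 *Smo* fell to 0.560 of its level (log2 fold change -0.84, standard error 0.049, edgeR FDR = 2.4e-08). The earlier fall between E15.5 and E18.5 was smaller (log2 fold change -0.19, edgeR FDR = 0.016, standard error 0.049) and lay near the threshold, with an FDR of 0.055 without E15.5 replicate 3, 0.055 without E18.5 replicate 1 and 0.053 without E18.5 replicate 2. With E15.5 replicate 3 as the only E15.5 library, the change of *Smo* was -0.27 (edgeR FDR = 0.051).

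The 3 *Gli* genes encode the transcription factors of the pathway. *Gli1* (ENSMUSG00000025407.7, chr10:127329882-127341974), an activator whose own transcription depends on the signal, was at 74.8, 70.6 and 90.3 CPM in the E15.5 libraries, 46.2, 42.3 and 57.85 at E18.5, 19.1, 26.7 and 25.03 at P5 and 16.4, 16.3 and 21.9 at P8. The libraries of the first 3 time-points formed separate, descending ranges, and P8 overlapped with P5. *Gli1* fell before birth by 0.68 on the log2 scale (edgeR FDR = 0.0092, standard error 0.15) and across birth by 0.97 (edgeR FDR = 0.00011, standard error 0.15). The difference between these 2 falls was not past the threshold (-0.28, edgeR FDR = 0.39). The prenatal fall stayed between -0.82 and -0.56, and past the threshold, whichever single library was removed. Between P5 and P8 the log2 fold change was -0.39 (edgeR FDR = 0.10). From E15.5 to P8 *Gli1* fell to 0.244 of its level (log2 fold change -2.04, edgeR FDR = 1.4e-07), the largest change among the 8 counted genes in that comparison.

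*Gli2* (ENSMUSG00000048402.14, chr1:118834132-119053619), the main activator of the response to ligand, was at 35.5, 28.9 and 41.6 CPM in the E15.5 libraries, 44.3, 33.8 and 34.3 at E18.5, 17.3, 20.9 and 20.6 at P5 and 17.7, 17.1 and 21.3 at P8. The embryonic libraries overlapped with each other, the postnatal ones likewise, and the periods were apart. *Gli2* fell across birth by 0.85 on the log2 scale (standard error 0.15, edgeR FDR = 0.00019), with log2 fold changes of 0.09 before (edgeR FDR = 0.68) and -0.08 after (edgeR FDR = 0.73).

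*Gli3* (ENSMUSG00000021318.15, chr13:15463235-15730026), which acts mostly as a repressor when ligand is absent, was at 69.1, 48.7 and 77.6 CPM in the E15.5 libraries and 75.2, 68.0 and 75.3 in the E18.5 ones. It then stood at 27.5, 27.1 and 26.3 CPM at P5 and 22.3, 21.3 and 24.1 at P8. The E15.5 and E18.5 libraries overlapped, and the P8 libraries all lay below the P5 libraries by a small margin. The fall from E18.5 to P5 was the largest of the 8 genes in this interval, to 0.393 of the earlier level (log2 fold change -1.35, standard error 0.14, edgeR FDR = 2.2e-06). Neither the change before it (log2 fold change 0.17, edgeR FDR = 0.40) nor that after it (-0.28, edgeR FDR = 0.17) was past the threshold.

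The summed CPM of the 12 mesenchymal markers was not lower after birth, unlike the receptor and the *Gli* genes. It was 5257 to 5672 across the E18.5 libraries, 5895 to 6517 across the P5 libraries and 7830 to 8173 across the P8 libraries. From E18.5 to P5 7 of the 12 were higher and 1 lower past the FDR threshold, where 35.4% of all genes were higher and 35.7% lower. From P5 to P8 *Col1a1* (0.96), *Col1a2* (0.63) and *Col3a1* (0.60) were higher and *Pdgfra* (-0.48), *Tcf21* (-0.45) and *Tbx4* (-0.31) lower past it. The median log2 fold change of the 12 in this interval was -0.11. The 8 proliferation markers moved in the same direction as the *Gli* genes, with all 8 lower and a summed CPM that went from 1900 to 1972 at E18.5 to 697 to 737 at P5. Their part in the falls was not tested.

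*Hhip* (ENSMUSG00000064325.4, chr8:79965851-80058006) encodes a membrane protein that binds Hedgehog ligands and so dampens the signal, and it is a target of the pathway like *Ptch1*. It was at 105, 76.1 and 112 CPM in the E15.5 libraries, 157, 141 and 128 at E18.5, 197, 203 and 205 at P5 and 128, 124 and 156 at P8. All P5 libraries lay above, and all E15.5 libraries below, those of the other time-points, and E18.5 and P8 overlapped. *Hhip* rose before birth by 0.54 on the log2 scale (edgeR FDR = 0.014, standard error 0.13) and across birth by 0.59 (edgeR FDR = 0.0014, standard error 0.13). Between P5 and P8 it fell by 0.59 (edgeR FDR = 0.012, standard error 0.13), to a level whose difference from E18.5 was not past the threshold (log2 fold change 0.00, edgeR FDR = 0.98). The rise from E15.5 to P5, 2.20-fold, passed both the FDR threshold and the cutoff of 1 on the absolute log2 fold change that the study used for differential expression (log2 fold change 1.14, edgeR FDR = 6.3e-06).

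The rise across birth held with each library left out in turn, between 0.52 and 0.68 on the log2 scale, but the changes on either side of it rested on fewer libraries. With P8 replicate 3 as the only P8 library, assumed to vary like the other groups, the change of *Hhip* from P5 to P8 was -0.40 (edgeR FDR = 0.30), and without P8 replicate 2 alone it was -0.52 (edgeR FDR = 0.057). With E15.5 replicate 3 as the only E15.5 library, the change from E15.5 to E18.5 was 0.33 (edgeR FDR = 0.18), and without E18.5 replicate 1 it was 0.46 (edgeR FDR = 0.061).

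*Sufu* (ENSMUSG00000025231.16, chr19:46396896-46488804), which encodes the cytoplasmic inhibitor of the GLI factors, was at 70.3, 66.2 and 74.3 CPM in the E15.5 libraries, 55.3, 66.7 and 67.0 at E18.5, 42.9, 47.2 and 42.4 at P5 and 49.3, 52.1 and 51.3 at P8. All postnatal libraries lay below all embryonic ones, and the P8 libraries lay above the P5 libraries. From E18.5 to P5 *Sufu* fell by 0.43 on the log2 scale (standard error 0.076, edgeR FDR = 0.00028), about as much as *Shh* and less than the receptor and the *Gli* genes. Its log2 fold changes of -0.15 before (edgeR FDR = 0.17) and 0.19 after (edgeR FDR = 0.11) were not past the threshold.

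The 8 counted genes were then set against all 15994 genes tested. From E15.5 to E18.5, 3 of the 8 were past the FDR threshold, 1 higher and 2 lower, where 21.5% of all genes were (11.6% higher and 9.87% lower), and 3 did not overlap in CPM between the time-points, where 38.1% of all genes did not. Across birth all 8 were past the threshold, 1 higher and 7 lower, where 71.1% of all genes were past it (35.4% higher and 35.7% lower), and all 8 did not overlap, where 77.1% of all genes did not. *Gli3* alone passed the fold change cutoff as well, 1 of 8 against 26.8% of all genes. From P5 to P8, *Hhip* was the only one of the 8 past the threshold, with 3 at an unadjusted p under 0.05, where 18.0% of all genes were past it and 8.21% were lower, and *Gli3*, *Hhip* and *Sufu* did not overlap, where 37.0% of all genes did not. The median log2 fold change of the 8 genes across birth was -0.77, against -0.00 over all genes. In the other 2 intervals the medians of the 8 were 0.11 and -0.12, against -0.01 and -0.00.

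**Figure D2:**
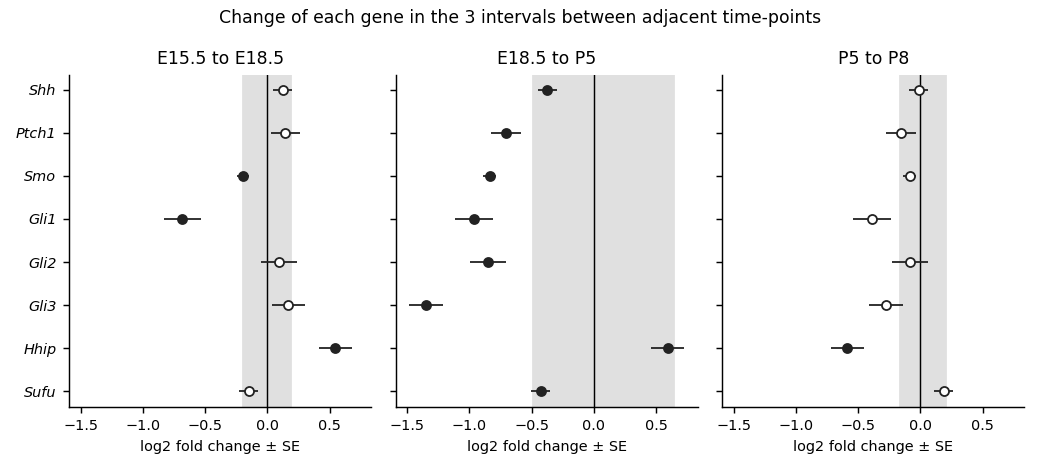
Log2 fold change (horizontal axis, points, with the standard error as a line) of each counted gene (vertical axis) in the 3 intervals between adjacent time-points. Filled points are past the edgeR FDR threshold of 0.05, and the grey band spans the lower to the upper quartile of all 15994 genes. Across birth 7 genes lie left of 0 and *Hhip* right of it, while most points of the other intervals are open.

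The difference between adjacent intervals was tested gene by gene in the same fit. The change across birth differed from that between E15.5 and E18.5 for 5 of the 8 genes, *Shh*, *Ptch1*, *Smo*, *Gli2* and *Gli3*, against 48.7% of all genes. It did not pass the threshold for *Gli1* (edgeR FDR = 0.39), *Hhip* (0.88) or *Sufu* (0.10), the first 2 of which had already moved in the same direction before birth. The change from P5 to P8 differed from that across birth for 7 of the 8 genes, against 52.4% of all genes, and for 4 of the 8 without P5 replicate 1 or without P5 replicate 3. For *Hhip*, which turned from a rise to a fall, this difference was -1.18 on the log2 scale (edgeR FDR = 0.00082), and *Gli1* was the exception (0.58, edgeR FDR = 0.090).

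Over longer spans, E15.5 to P5 gave changes past the FDR threshold in 8 of 8 genes (75.1% of all genes), E15.5 to P8 in 8 of 8 (76.3%) and E18.5 to P8 in 7 of 8 (73.7%). Past the fold change cutoff as well were *Smo* (-1.03), *Gli1* (-1.65), *Gli3* (-1.18) and *Hhip* (1.14) from E15.5 to P5 (31.8% of all genes), *Smo* (-1.12), *Gli1* (-2.04) and *Gli3* (-1.46) from E15.5 to P8 (32.3%) and *Gli1* (-1.35) and *Gli3* (-1.62) from E18.5 to P8 (29.0%), all on the log2 scale. These comparisons share libraries with each other. With P8 replicate 3 as the only P8 library, the changes of *Shh* (-0.25, edgeR FDR = 0.058) and *Sufu* (-0.24, edgeR FDR = 0.091) from E18.5 to P8 were no longer past the threshold. That of *Sufu* was also lost without E18.5 replicate 2 or without E18.5 replicate 3 (edgeR FDR = 0.056 each), and the change of *Shh* from E15.5 to P5 without P5 replicate 1 (edgeR FDR = 0.063) or without P5 replicate 3 (edgeR FDR = 0.053).

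Levels of different genes were compared as CPM per kb of annotated exon. At E15.5 the order was *Smo* at 54.5 ± 2.13 (SD, n = 3), *Ptch1* at 19.3 ± 2.80, *Gli1* at 15.7 ± 2.08, *Shh* at 11.4 ± 0.579, *Hhip* at 10.8 ± 2.104, *Sufu* at 9.14 ± 0.524, *Gli3* at 6.80 ± 1.55, *Gli2* at 5.14 ± 0.925 and *Ihh* at 0.00960 ± 0.00844. *Smo* stood apart from *Ptch1*, and *Ihh* from *Gli2*. *Ptch1* and *Gli1* overlapped in their ranges, *Hhip* overlapped with *Shh* above it and *Sufu* below it, and *Gli3* overlapped with *Gli2*. By P5 the order had become *Smo* at 24.99 ± 0.858, *Hhip* at 22.2 ± 0.443, *Ptch1* at 12.3 ± 0.736, *Shh* at 9.02 ± 0.834, *Sufu* at 5.74 ± 0.343, *Gli1* at 4.72 ± 0.801, *Gli2* at 2.85 ± 0.296, *Gli3* at 2.81 ± 0.0677 and *Ihh* at 0.0467 ± 0.0279. *Smo* and *Hhip*, *Hhip* and *Ptch1*, *Ptch1* and *Shh*, and *Shh* and *Sufu* did not overlap, while *Sufu* and *Gli1* stayed apart by a small margin and *Gli2* and *Gli3* overlapped. *Hhip* thus moved from the fifth place to the second, and *Gli1* from the third to the sixth.

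**Figure D3:**
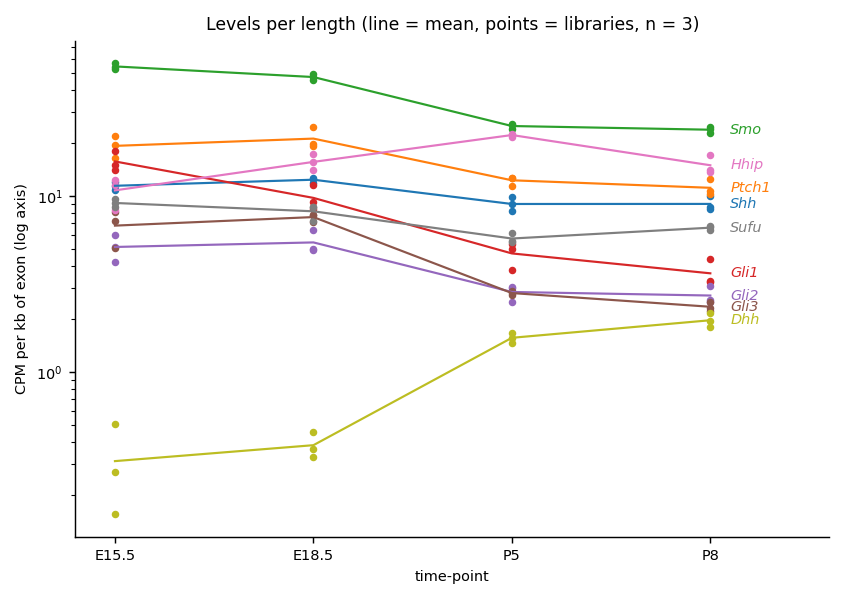
Level of each gene in CPM per kb of exon (vertical log axis) at the 4 time-points (horizontal axis), with a point for each library and a line through the means (n = 3). *Ihh* is left out, and *Dhh* is added for comparison. The *Hhip* line crosses those of *Shh*, *Gli1* and *Ptch1* between E15.5 and P5, and the *Gli1* line drops from 15.7 to 3.64.

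Ratios of reads within a library do not depend on its depth. *Gli1*, *Ptch1* and *Hhip*, all known targets of the pathway, did not keep a constant ratio. *Ptch1* had 3.29 to 3.70 reads for each read of *Gli1* in the E15.5 libraries, 4.83 to 7.60 at E18.5, 6.77 to 8.51 at P5 and 8.05 to 9.28 at P8. *Hhip* had 1.08 to 1.41 reads for each read of *Gli1* at E15.5, 2.21 to 3.39 at E18.5, 7.60 to 10.3 at P5 and 7.12 to 7.79 at P8. In both ratios the E15.5 libraries lay below all others. *Ptch1* had 2.63 to 3.05 reads for each read of *Hhip* at E15.5, 1.92 to 2.24 at E18.5, 0.823 to 0.892 at P5 and 1.13 to 1.22 at P8. These 4 ranges did not overlap with each other. Such ratios are not adjusted for exon length, which is 14185 bases for *Ptch1* and 9076 for *Hhip*. Per kb of exon, *Ptch1* was at 10.3, 10.7 and 12.4 CPM in P8 replicates 1, 2 and 3. *Hhip* was above it in each, at 14.1, 13.7 and 17.2 CPM per kb.

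Among the *Gli* genes, *Gli1* had 2.11 to 2.45 reads for each read of *Gli2* at E15.5 and 0.926 to 1.03 at P8, with ranges of 1.04 to 1.69 and 1.10 to 1.27 at E18.5 and P5 between them. *Gli2* had 0.514 to 0.592 reads for each read of *Gli3* at E15.5, 0.455 to 0.589 at E18.5, 0.627 to 0.785 at P5 and 0.794 to 0.884 at P8. The postnatal ranges of this ratio lay above the embryonic ones. The ratios are descriptions without a test.

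**Figure D4:**
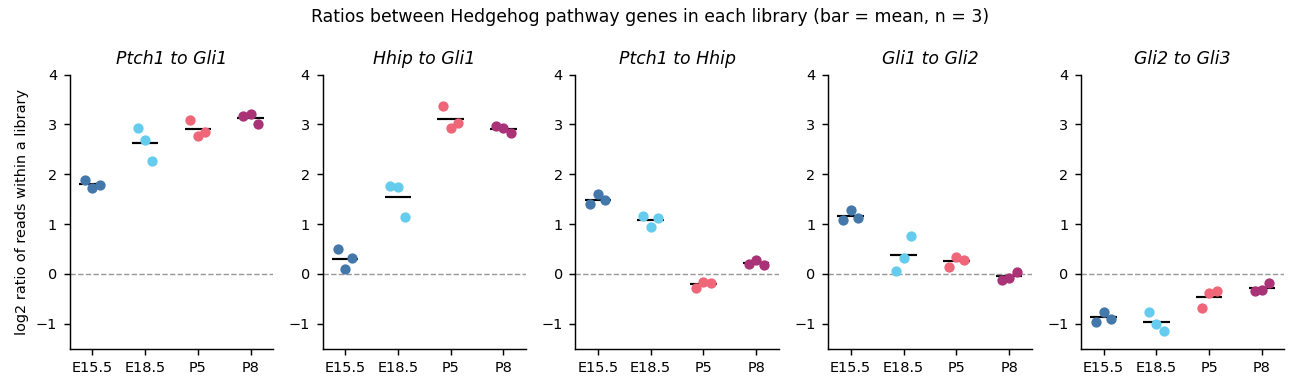
Log2 ratio of the reads of 2 genes within a library (vertical axis), a point for each library and a bar for the mean (n = 3), at the 4 time-points (horizontal axis), with a dashed line at equal reads. *Ptch1* to *Gli1* and *Hhip* to *Gli1* climb from E15.5, *Ptch1* to *Hhip* dips below 0 at P5 alone, and *Gli1* to *Gli2* reaches about 0 at P8. The ratios are not adjusted for exon length, so equal reads are not equal levels.

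The pattern of each gene over the 12 libraries was also compared with that of all others by Pearson's r of log2 CPM after TMM normalization, as a description only, since the libraries share their time-points and litters. *Gli2* was the gene most like *Ptch1* and the reverse (r = 0.992), and their promoter windows are those printed above. *Vps37d* was next for both (0.984 with *Ptch1* and 0.980 with *Gli2*). For *Gli3* the most alike were *Clcn5* (0.992), *Fbn2* (0.991) and *Jade3* (0.991), and for *Gli1* *Atxn7l2* (0.991), *2410002F23Rik* (0.988) and *Tbx3os1* (0.987).

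*Smo* shared its pattern widely, with 2082 genes above an r of 0.95 and *Nasp*, *Marcksl1* and *Psip1* at 0.998. *Shh* shared it least, with 9 genes above 0.95, led by *Pkn2* (0.970), *Bmpr1a* (0.966) and *Arhgap18* (0.959). *Hhip* had 40 such genes, led by *Trove2* (0.983), and *Sufu* 109, led by *Imp4* (0.985). Among the members, *Hhip* was negatively related to each of the other 7, from -0.35 with *Shh* to -0.82 with *Sufu*, and the other pairs lay between 0.70 and 0.99.

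The wider pathway was read from a list of 39 further genes, from ligand release to GLI turnover. Across birth 11 rose, 17 fell and 11 were not past the FDR threshold, with a median log2 fold change of -0.12. The 28 of 39 past it were 71.8%, close to the 71.1% of all genes. Genes at the ligand and co-receptor step moved in both directions. *Scube2*, whose product helps to release Hedgehog ligand, rose from 5.32, 5.46 and 4.596 CPM at E18.5 to 45.1, 36.6 and 39.7 at P5, without overlap (log2 fold change 3.07, standard error 0.18, edgeR FDR = 2.7e-08). Its relative *Scube1* rose by 1.14 and *Scube3* fell by 1.84 on the log2 scale. *Lrp2*, a large endocytic receptor, rose by 2.36, from 2.70 ± 0.719 to 12.96 ± 3.53 CPM (SD, n = 3).

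*Cdon* and *Boc*, co-receptors that help ligand bind PTCH1, fell across birth. *Cdon* was at 57.1, 47.6 and 48.7 CPM at E18.5, 20.3, 19.2 and 20.8 at P5 and 34.5, 39.7 and 36.4 at P8, and its 3 time-points did not overlap. It fell by 1.26 on the log2 scale and rose again by 0.86 from P5 to P8 (edgeR FDR = 1.9e-07 and 0.00054), and with P8 replicate 3 alone at P8 the rise was 0.83 (edgeR FDR = 0.021). *Boc* fell by 0.78 and rose by 0.19 (edgeR FDR = 1.8e-07 and 0.044), the latter 0.24 (edgeR FDR = 0.18) with P8 replicate 3 alone.

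The co-receptor *Gas1* was at 70.0, 86.7 and 62.0 CPM in the E15.5 libraries, 56.2, 48.3 and 49.2 at E18.5, 36.6, 41.2 and 43.8 at P5 and 64.3, 63.3 and 49.4 at P8. Adjacent time-points did not overlap, and replicate 3, which had the lower sum of heart muscle genes at E15.5 and of oesophagus and stomach genes at P8, was the lowest library of both groups. *Gas1* fell by 0.50 before birth (edgeR FDR = 0.020) and rose by 0.53 from P5 to P8 (edgeR FDR = 0.020), but with replicate 3 alone these changes were -0.28 (edgeR FDR = 0.32) and 0.26 (edgeR FDR = 0.43). The log2 fold change of *Gas1* across birth was -0.25 (edgeR FDR = 0.11), and its difference from that before birth was not past the threshold (0.25, edgeR FDR = 0.40).

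The enzyme that attaches palmitate to Hedgehog ligands, *Hhat*, fell across birth by 1.01 on the log2 scale, the ligand exporter *Disp1* by 0.47 and the kinesin *Kif7*, which organises the cilium tip for GLI processing, by 0.64 (edgeR FDR = 2.1e-05, 0.0038 and 0.0016). *Gnas*, whose product stimulates adenylyl cyclase and so opposes the signal, fell by 1.08, and its counts are uncertain because several transcripts overlap at that locus.

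In the other intervals the number of calls in this list changed with single libraries, as did that over all genes. From E15.5 to E18.5, 4 of the 39 rose and 4 fell (20.5%, against 21.5% of all genes), led by *Scube2* (0.89), *Gas1* (-0.50), *Gpc3* (-0.41) and *Btrc* (-0.32). The count was 5 without E15.5 replicate 1 or E18.5 replicate 1 and 4 without E18.5 replicate 2. Over all genes it was 2471, 1934 and 2028 in these fits, in this order, against 3441 with all libraries. With E15.5 replicate 3 alone at E15.5 the log2 fold changes were 0.96 for *Scube2*, -0.40 for *Gpc3* and -0.32 for *Btrc*.

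From P5 to P8, 6 of the 39 rose and 1 fell (17.9%, against 18.0% of all genes), led by *Scube3* (0.91), *Cdon* (0.86), *Gas1* (0.53) and *Gpc3* (0.50), the last a cell surface proteoglycan that binds Hedgehog ligand. The count was 4 without P5 replicate 1, P5 replicate 2, P8 replicate 1 or P8 replicate 2, and 12 without P8 replicate 3. Over all genes it was 1677, 1561, 1401, 1231 and 3759 in these fits, in this order, against 2872 with all libraries. With P8 replicate 3 alone at P8, the log2 fold changes were 0.69 for *Gpc3* and 0.41 for *Scube3*.

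Of 12 further genes known to respond to Hedgehog signals, 3 rose, 7 fell and 2 were not past the threshold across birth, with a median log2 fold change of -0.43. These 10 were 83.3% of the list, where 71.1% of all genes were past it, 35.4% higher and 35.7% lower. The mesenchymal transcription factors of the forkhead family parted. *Foxf1* was at 165, 149 and 150.0 CPM at E18.5 and 231, 269 and 251 at P5, a rise of 0.78 on the log2 scale (standard error 0.085, edgeR FDR = 3.9e-06), and *Foxf2* rose by 0.37, while *Foxl1* fell by 1.44 (edgeR FDR = 8.3e-07). The signalling protein *Bmp4* rose by 0.77 after a fall of 0.49 before birth (edgeR FDR = 9.4e-06 and 0.0044).

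The growth-promoting *Mycn* fell in both intervals, by 0.59 and 1.11 (edgeR FDR = 0.0020 and 4.4e-07), and *Myocd*, a coactivator of smooth muscle genes, fell across birth by 0.56 and again from P5 to P8 by 0.39 (edgeR FDR = 0.00086 and 0.037). Before birth 1 of the 12 rose, the growth factor *Fgf10* (0.45), and 4 fell, among them *Osr1* (-0.61). These 5 were 41.7% of the list, against 21.5% of all genes. With E15.5 replicate 3 alone at E15.5, *Bmp4* was at -0.56, *Mycn* at -0.70, *Ccnd2* at -0.42, *Fgf10* at 0.46 and *Osr1* at -0.37. From P5 to P8, 1 of the 12 rose, *Osr1* (0.74), and 2 fell, *Myocd* and *Bcl2* (-0.35), 25% of the list against 18.0% of all genes. With P8 replicate 3 alone at P8, *Osr1* was at 0.34, *Myocd* at -0.54 and *Bcl2* at -0.35. The count was 1 without P5 replicate 1, P5 replicate 2, P8 replicate 1 or P8 replicate 2, and 0 without P5 replicate 3. Over all genes it was 1202 to 1677 in these fits, against 2872 with all libraries. The summed CPM of 10 smooth muscle and myofibroblast markers was 701 to 856 across the E18.5 libraries and 787 to 922 across the P5 libraries. Across birth 6 of the 10 were higher and none lower past the threshold (60%, against 71.1% of all genes), with a median log2 fold change of 0.60.

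Of 20 genes for transport into and along the primary cilium, the organelle in which SMO acts, 1 rose, 13 fell and 6 were not past the threshold across birth, with a median log2 fold change of -0.33. The 14 of 20 past it were 70%, close to the 71.1% of all genes. The largest falls were those of *Rpgrip1l* (-0.57), *Wdr35* (-0.56), *Mks1* (-0.55) and *Ift140* (-0.49), each smaller than that of *Smo*. Before birth *Cep290* (0.47) and *Arl13b* (0.38) rose and none fell (10% of the list, against 21.5% of all genes). With E15.5 replicate 3 alone at E15.5 *Cep290* was at 0.44 and *Arl13b* at 0.44. From P5 to P8 5 of the 20 rose (25%, against 18.0% of all genes) and none fell, led by *Ift140* (0.49), *Ift88* (0.40), *Ift172* (0.39) and *Ift122* (0.38). With P8 replicate 3 alone at P8 the log2 fold changes were 0.25 for *Ift140*, 0.61 for *Ift88*, 0.43 for *Ift172* and 0.35 for *Ift122*. The count was 3 without P5 replicate 2, 2 without P8 replicate 2 and 1 without P5 replicate 3. Over all genes it was 1561, 1231 and 1202 in these fits, in this order, against 2872 with all libraries. The lists were given as counts beside the shares of all genes, without a test of the list.

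**Figure D5:**
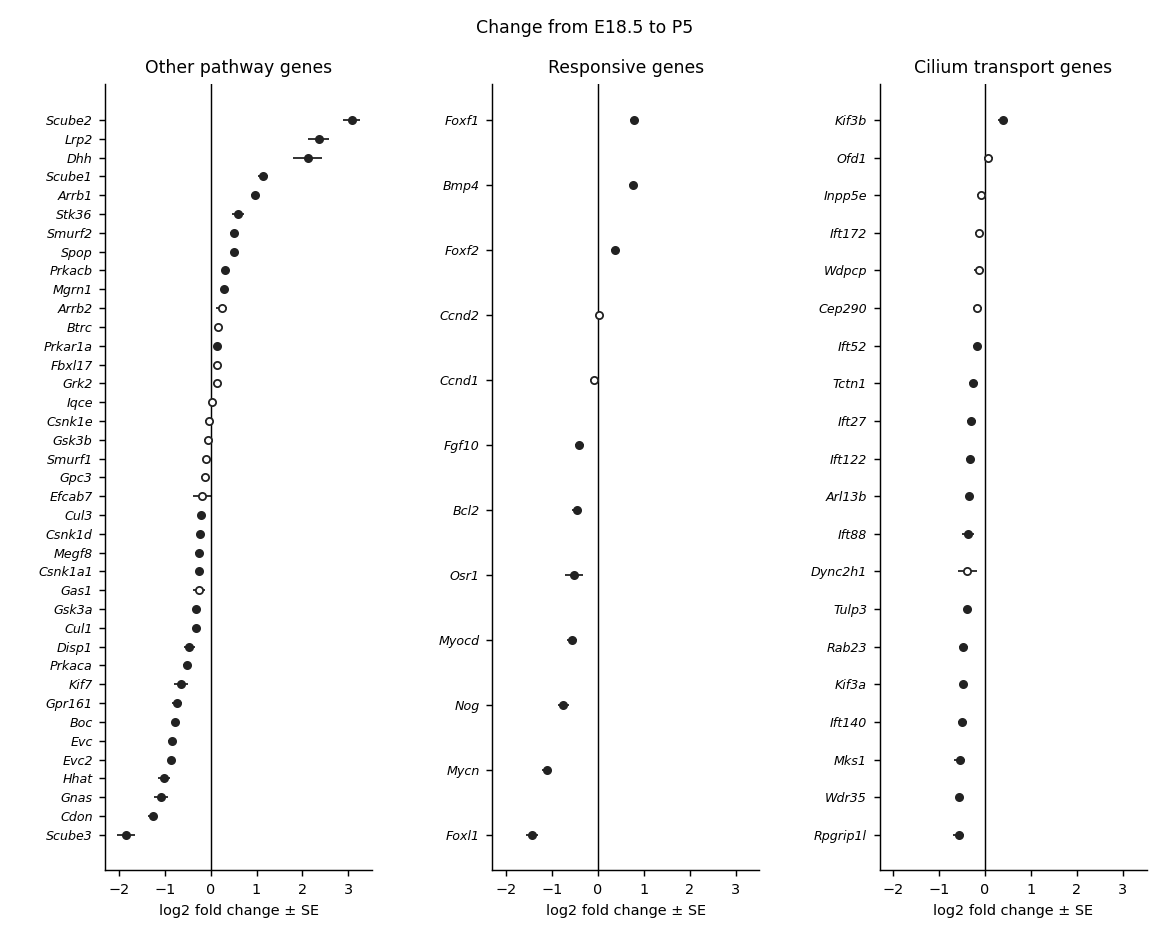
Change across birth, from E18.5 to P5, as a log2 fold change (horizontal axis, points, with the standard error as a line) of the 39 other pathway genes, the 12 responsive genes and the 20 cilium transport genes (vertical axis, ordered by change). Filled points are past the edgeR FDR threshold of 0.05. *Scube2* lies furthest to the right at 3.07 and *Scube3* furthest to the left at -1.84, and most of the cilium transport genes lie just left of 0.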

How the data were processed

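RNA from 12 whole lungs was sequenced (TruSeq libraries, 101-nt paired-end reads). The authors mapped unique reads to mm10 with TopHat2 (version 2.1.1) and Bowtie2 (version 2.3.4), annotated them to Gencode vM14 and counted them per gene with HTSeq-count (version 0.10.0). They deposited raw counts of the 16152 genes that reached 1 CPM in 3 samples, and CPM values of 51825 genes, each count divided by the mapped reads of its library. The CPM values were whole multiples of 1 read in 100% of cases (tolerance 0.01 reads), at 48436716 to 62279460 mapped reads per library. IDs were matched to symbols for 51632 of the 51825 genes. Positions and exon lengths came from Gencode M21, on the same assembly, and promoters from RefSeq (GRCm38.p6).

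The raw counts were fitted with edgeR 4.0.16 in R 4.3.3 (quasi-likelihood test, TMM, all 12 libraries in 1 fit), on the 15994 genes that reached 1 CPM in 3 or more libraries. A change had a Benjamini-Hochberg FDR under 0.05 over all genes tested, and differential expression also an absolute log2 fold change above 1. The test was tried on simulated counts beforehand. The alternatives were other scalings and filters, DESeq2 1.42.0, edgeR's likelihood ratio test, limma voom (limma 3.58.1), fits of 2 time-points, a replicate block and libraries left out. The authors' splicing table was not used, since its events were not paired with the 9 genes.

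The members and lists were chosen with earlier results of these data known. All members were named, with 11 fixed genes of the lists (1 more is not reported here) and each list's 4 largest changes past the FDR threshold, at 1 CPM or more on average, in each interval between adjacent time-points. Others were named after their values were seen: *Scube1*, *Foxf2*, *Gnas* and *Ccnd2*. No FDR was adjusted over a list alone.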

Additional observations from a re-analysis of the deposited data

How the results depend on the processing

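The 8 changes across birth held their direction and stayed past the FDR threshold under every alternative run. Of the 864 values of single members under the alternatives, in the 3 intervals and from E15.5 to P8, 818 kept both their direction and their side of the threshold, 18 lost the threshold, 7 passed it and 21 turned direction. Scaled by library size alone, without TMM, 2 members passed the fold change cutoff across birth, and *Shh* from P5 to P8 came to 0.000246. With only the 2 time-points compared, 3 members were past the threshold from P5 to P8, and with the recovered reads and no filter, chosen after seeing the data, 2 were, with 3 of the cilium transport genes.

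Without E15.5 replicate 2 and P8 replicates 1 and 2 together, the counts from P5 to P8 were 0 members, 2 other pathway genes, 0 responsive genes and 1 cilium transport gene. *Gli2* then turned to -0.0325 and *Gli3* to -0.00347 from E15.5 to E18.5, and *Shh* to 0.134 and *Gli2* to 0.0975 from P5 to P8. Further fits chosen after seeing the data kept replicate 3 alone. At P8 this gave 0 members, 2 other pathway genes, 0 responsive genes and 0 cilium transport genes from P5 to P8, with *Shh* at 0.13 and *Gli2* at 0.0949. At E15.5 it gave 1 member, 1 other pathway gene, 3 responsive genes and 1 cilium transport gene from E15.5 to E18.5, with *Ptch1* at -0.0553, *Gli2* at -0.15 and *Gli3* at -0.10, and 2 members from P5 to P8. At both it gave 1, 3, 3 and 1 before birth and 0, 2, 0 and 1 from P5 to P8 in the same order, with *Ptch1* at -0.0530, *Gli2* at -0.15 and *Gli3* at -0.10 before birth and *Shh* at 0.134 and *Gli2* at 0.0976 after it.

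With each library left out in turn, the counts from E15.5 to E18.5 ranged from 1 to 3 members and from 4 to 12 other pathway genes. Those from P5 to P8 ranged from 0 to 2 members, 4 to 12 other pathway genes, 0 to 3 responsive genes and 1 to 5 cilium transport genes. Over all genes the counts of these intervals ranged from 1934 to 3917 and from 1202 to 3759. Members past the fold change cutoff across birth ranged from 1 to 2, and members whose change from P5 to P8 differed from that across birth from 4 to 7. *Gli2* and *Gli3* before birth ranged from -0.0554 to 0.23 and from -0.00434 to 0.32, and *Shh* from P5 to P8 from -0.11 to 0.0325. Except where shown by fewer libraries in the fit, the cause was not tested.

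Replicate numbers are shared by the time-points but did not pair the samples: libraries of the same number correlated between -0.34 and 0.30 in their deviations, and 4 of 12 correlated best with their own number. The replicate block gave 2 members past the threshold from P5 to P8, with *Gli1* added at -0.40 (edgeR FDR = 0.035). Members near 1 CPM or below, here *Ihh* alone, are limited by depth.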
